A study of Mus musculus with 2 samples.

Results

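The let-7 family was followed in small RNA of the embryonic mouse midbrain, across the 10 microRNA (miRNA) genes of the family that the deposited counts list, out of 1973 genes in all. The members are the rows whose gene symbol starts with Mirlet7, together with Mir98, so the rule uses names only. The loci of let-7e and let-7f-1 have no row of their own here. Each is faced on the other strand by a listed gene, Gm25927 for let-7e and Gm24111 for let-7f-1, and the reads opposite to those 2 genes are given apart from the members as stand-ins. Both libraries come from midbrain tissue of healthy B6NCrl embryos at 15.5 days, with both sexes pooled, and hold RNA under 30 bases. Replicate 1 was a pool of 78 embryos and replicate 2 a pool of 62, and no other group, age, genotype or treatment was measured. A level in such bulk tissue is an average over all its cell types, and more cells of a type cannot be told apart from more RNA per cell.

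let-7 was found in the worm as a gene that times the passage from larval to adult cell fates, and its mature sequence is among the most conserved of all animal miRNAs. The mature miRNA, about 22 bases long, is cut from a hairpin precursor, usually from its left (5p) arm, and guides Argonaute proteins to mRNAs that pair with its seed, bases 2 to 8. The RNA-binding protein LIN28 holds the loop of the precursor in stem and progenitor cells and blocks its maturation, and let-7 in turn represses Lin28 mRNA, so the family rises as cells differentiate. In the developing brain, let-7 members are known to restrain progenitor genes such as Hmga2 and Nr2e1 and to favour the switch from division to neuronal differentiation.

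The mature sequences are shown because the members differ by few bases, and because those bases decide whether a short read can be placed at a single gene. All 10 members, and both absent loci, were matched to RefSeq sequences (GRCm38.p6). The 12 hairpins carry only 9 distinct 5p sequences, each of 22 bases, written 5′ to 3′ with the seed in capitals.
let-7a-5p: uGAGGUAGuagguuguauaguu
let-7b-5p: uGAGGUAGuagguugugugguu
let-7c-5p: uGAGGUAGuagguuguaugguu
let-7d-5p: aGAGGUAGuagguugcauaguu
let-7e-5p: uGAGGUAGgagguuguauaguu
let-7f-5p: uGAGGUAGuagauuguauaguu
let-7g-5p: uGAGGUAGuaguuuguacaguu
let-7i-5p: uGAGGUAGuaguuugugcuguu
miR-98-5p: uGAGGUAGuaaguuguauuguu
The seed GAGGUAG was the same in all 12 hairpins, so the family forms a single seed group, and only 11 of 1674 distinct mature sequences in the RefSeq table (0.657%) begin with it at base 2. Against let-7a-5p, with the base of let-7a first and positions counted from the 5′ end, let-7c differs by A19G, let-7e by U9G and let-7f by G12A. let-7b differs by A17G and A19G, let-7d by U1A and U16C, miR-98 by G11A and A19U, let-7g by G12U and U18C, and let-7i by G12U, A17G, U18C and A19U. The closest sequences, let-7a with let-7c, let-7e or let-7f, and let-7b with let-7c, share 21 of 22 bases. let-7d, let-7g, let-7i and miR-98 each lie at least 2 bases from every other 5p sequence of the family.

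Copies of the same mature sequence set the members apart in another way. let-7a-5p is in the hairpins of Mirlet7a-1 and Mirlet7a-2, let-7c-5p in those of Mirlet7c-1 and Mirlet7c-2, and let-7f-5p in those of Mirlet7f-1 and Mirlet7f-2. The identical stretch around the shared arm was 23 bases for the let-7a pair, 23 for the let-7c pair and 22 for the let-7f pair. The first base past the let-7f arm is G in Mirlet7f-1 and U in Mirlet7f-2. The right (3p) arms of Mirlet7a-1 and Mirlet7c-2 are also identical to each other, at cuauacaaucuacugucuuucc, so neither of these 2 genes has an arm of its own. Every other hairpin of the family has a 3p arm found in no other hairpin. Mirlet7b, Mirlet7d, Mirlet7g, Mirlet7i and Mir98 each have a 5p sequence found in a single hairpin.

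The libraries were deposited as read counts per gene. Sense reads on miRNA genes numbered 3429704 in replicate 1 and 5752476 in replicate 2, and levels are given as CPM (the usual counts-per-million scale, taken over those sense reads). On that scale 1 read equals 0.292 CPM in the smaller library, replicate 1, and 0.174 CPM in replicate 2. All mature arms of the family are 21 or 22 bases long, so no correction for length was made. Levels are levels of counted reads. How evenly different sequences were read was not tested, so ratios between genes need not be ratios of RNA amount. Reads that fit several places in the genome were tallied apart from all genes in these tables, and numbered 2847913 and 4694526, or 0.830 and 0.816 times the sense reads. The counts do not separate the 5p from the 3p arm. As a check of the tissue, neuronal Mir137 stood at 10800 and 11585 CPM, Mir124a-1, Mir124a-2 and Mir124a-3 were between 0.522 and 4.08 CPM, and markers of other cells ranged in summed level from 11.7 and 16.0 CPM for muscle to 24909 and 21568 CPM for endothelial Mir126a. Of the 3 muscle markers, Mir1a-1 and Mir133a-1 had no read. The Mir124a genes, Mir1a-1 and Mir133a-1 are known to share their mature sequence with other genomic copies, so a low count or 0 for them does not show that the miRNA is absent. Liver Mir122 had 43.2 and 76.1 CPM.

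Mirlet7g and Mirlet7i were by far the highest members and together held 83.2 ± 0.480% (SD, n = 2) of the family's counts. Those counts leave out reads that fitted several places in the genome. Mirlet7g, encoded in an intron of Wdr82, had 205786 reads or 60001 CPM in replicate 1 and 331896 reads or 57696 CPM in replicate 2, a mean of 58849 ± 1630 CPM. Of the family's counts it took 51.1% in replicate 1 (exact 95% bounds 51.0 and 51.3) and 52.3% in replicate 2 (bounds 52.1 and 52.4). Mirlet7i had 37207 and 34496 CPM (mean 35852 ± 1916), and Mirlet7g exceeded it 1.61-fold in replicate 1 and 1.67-fold in replicate 2. The values of the 2 genes did not overlap. These intervals, and those below, cover counting error of reads only, and not variation between pools or library preparations. PCR copies of a molecule were not told apart, so the intervals may be too narrow even for counting error.

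Below that pair came a step of 5.44-fold in replicate 1 and 5.81-fold in replicate 2 down to Mirlet7d. Mirlet7d, the member whose 5p sequence starts with A, had 6839 and 5932 CPM (mean 6386 ± 641). Mir98, the X-linked member that was named apart from let-7, had 4558 and 4226 CPM (4392 ± 235), and Mirlet7b, which is studied as a brake on neural stem cell division, had 4585 and 4028 CPM (4306 ± 394). The libraries put these 2 genes in opposite orders, and they are the only neighbours in the order of the family whose values overlapped. Mirlet7f-2, the gene next to Mir98, followed at 2720 and 2628 CPM (2674 ± 64.8).

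The lowest 4 members by counted reads were the genes of let-7a and let-7c, whose levels leave out reads that fitted both copies. Mirlet7c-2 had 531 and 523 CPM (527 ± 5.24), after a step of 5.13-fold and 5.02-fold from Mirlet7f-2. Mirlet7c-1 had 425 and 390 CPM (407 ± 25.1) and Mirlet7a-1 had 268 and 250.3 CPM (259 ± 12.3). Mirlet7a-2 was the lowest member at 211 and 215 CPM (213 ± 3.03), which is 724 and 1239 reads, and Mirlet7g exceeded it 284-fold and 268-fold. Every member was therefore far above the floor of 3 reads that a count of 0 would allow (0.875 and 0.522 CPM).

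**Figure D1:**
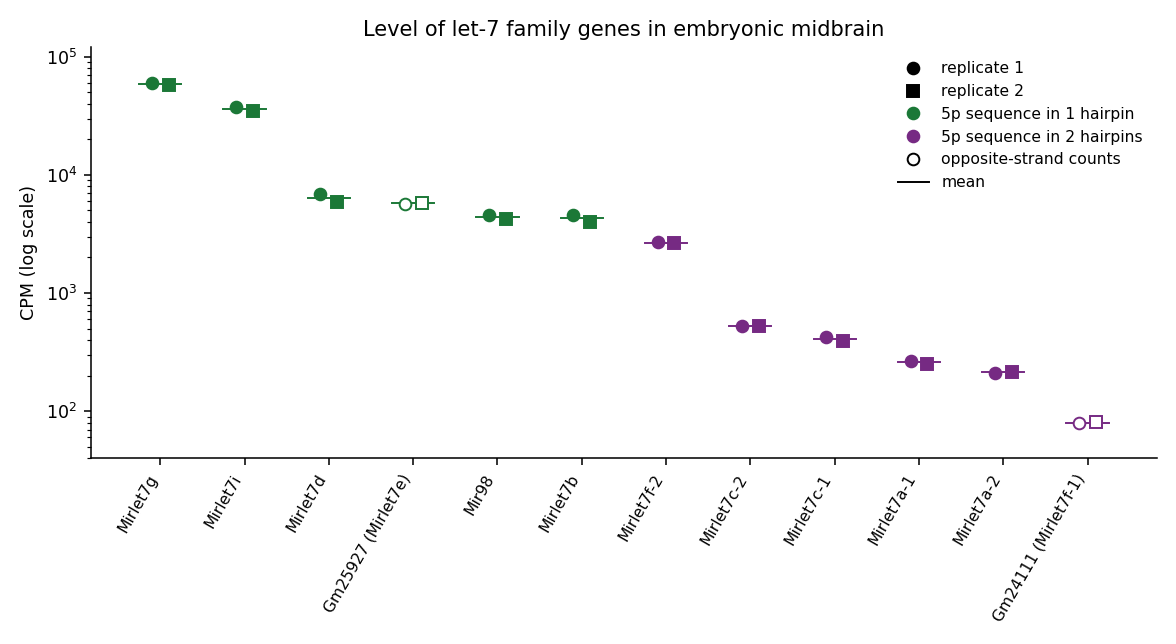
Level of each let-7 gene in CPM on a log axis, with circles for replicate 1, squares for replicate 2 and a line at the mean. Green marks genes whose 5p sequence is in 1 hairpin and purple those whose 5p sequence is in 2, and open symbols are opposite-strand counts of Gm25927 and Gm24111. Every filled green gene lies above every purple gene, and only Mir98 and Mirlet7b overlap as neighbours.

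The 5 members whose 5p sequence is found in a single hairpin were all higher than the 5 whose 5p sequence is found in 2. The lowest value of the first set in either library was 4028 CPM, for Mirlet7b, and the highest value of the second set was 2720 CPM, for Mirlet7f-2. The second set held 3.54% of the family's counts in replicate 1 (exact 95% bounds 3.48 and 3.60) and 3.63% in replicate 2 (bounds 3.58 and 3.68), a mean of 3.59 ± 0.0633%. The 4 members at least 2 bases from every other 5p sequence, Mirlet7g, Mirlet7i, Mirlet7d and Mir98, held 92.6 ± 0.119%. Reads of let-7a, let-7c or let-7f that fitted both copies are in no gene's count, so the levels of Mirlet7a-1, Mirlet7a-2, Mirlet7c-1, Mirlet7c-2 and Mirlet7f-2 leave such reads out. How many of the reads with several places belong to let-7 was not tested.

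Among other genes with a RefSeq hairpin, 80 had a mature sequence shared by another hairpin of that table and 768 had none. The shared set had a median of 2.51 CPM and a highest level of 5631 CPM, and held 2.21% and 2.15% of the sense counts. The set with no shared sequence had a median of 0.67 CPM and a highest level of 223432 CPM, and held 77.7% and 78.3%. These values were set side by side with no test, since genes are not replicates.

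Copied members with a 3p arm of their own were not uniformly higher or lower than those without. The counts do not separate the arms, so any bearing of the 3p arm on the levels was not tested. Mirlet7a-1 and Mirlet7c-2, with both arms shared, stood at means of 259 and 527 CPM. Mirlet7a-2 and Mirlet7c-1, with a 3p arm of their own, stood at 213 and 407 CPM, below the other copy in both pairs. Mirlet7c-2 exceeded Mirlet7c-1 1.25-fold and 1.34-fold, and Mirlet7a-1 exceeded Mirlet7a-2 1.27-fold and 1.16-fold. Mirlet7f-2, which also has a 3p arm of its own, was the highest of the copied members at 2674 CPM. Its level was 34.6 and 32.7 times that of the reads opposite to Gm24111. Reads that fitted both let-7f copies are left out on either side of this ratio.

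The reads opposite to Gm25927 were as many as those of upper members. Which sequences these reads hold was not checked, here or for Gm24111, so the levels below are those of the strand facing each gene. Gm25927 lies on the minus strand of chromosome 17 at 17830343 to 17830459 and covers the let-7e hairpin with 9 further bases on its left and 15 on its right. It had no sense read in either library, and 19619 and 33136 opposite-strand reads, which is 5720 and 5760 CPM of the sense total (mean 5740 ± 28.3). Its values lay below both of Mirlet7d and above both of Mir98. Among all genes, its opposite-strand count ranked 1 in replicate 1 and 2 in replicate 2, and it held 25.1% and 23.9% of all opposite-strand reads.

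The reads opposite to Gm24111 were few. This gene on the plus strand of chromosome 13, at 48537825 to 48537921, extends 4 bases beyond the let-7f-1 hairpin on each side. It had 2 sense reads in each library and 270 and 462 opposite-strand reads, which is 78.7 and 80.3 CPM (79.5 ± 1.12). Mirlet7a-2, the lowest member, exceeded that 2.68-fold in both libraries. The let-7f-5p sequence is in 2 hairpins, so reads that fitted both are left out here, and few reads do not show little let-7f-1. The strand-specific counts of the members themselves were almost free of opposite-strand reads, with 5 over all 10 genes in each library.

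Within the whole table the members spread widely. By mean CPM, Mirlet7g ranked 2, Mirlet7i 5, Mirlet7d 30, Mir98 37, Mirlet7b 39 and Mirlet7f-2 59, while Mirlet7c-2 ranked 121, Mirlet7c-1 137, Mirlet7a-1 161 and Mirlet7a-2 169. The nearest genes in level to Mirlet7g were Mir335 (54127 and 61503 CPM) and Mir100 (43795 and 42545 CPM), which differed from it by 0.028 and 0.45 in mean log2(CPM + 1) over the 2 libraries. Those nearest to Mirlet7i were Mir487b (26853 and 33666 CPM), 0.25 away, and Mir100, 0.27 away. Mirlet7g lay between the 2 values of Mir335 in both libraries, so their order cannot be told from these pools.

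**Figure D2:**
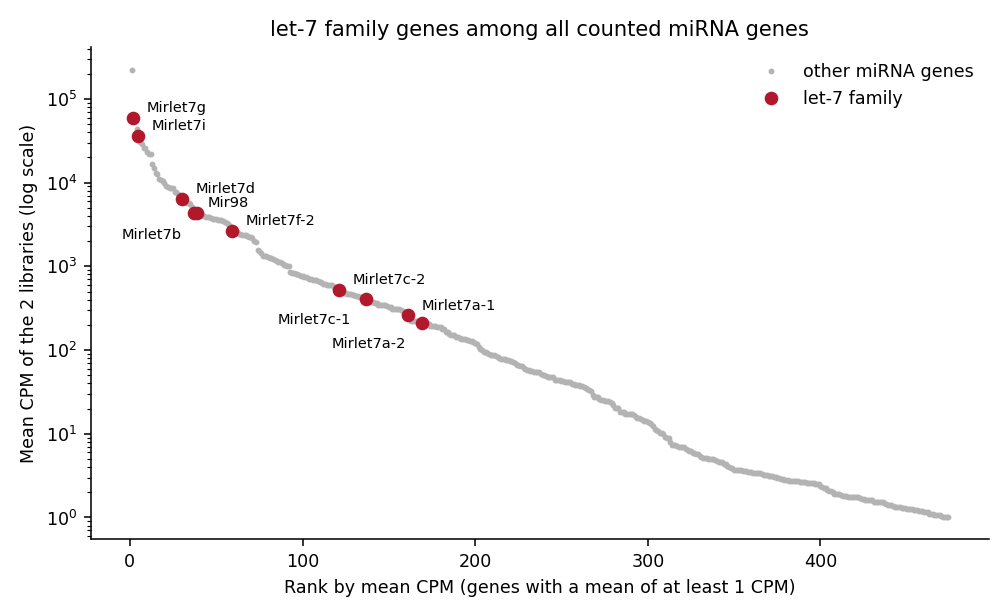
Mean CPM of the 2 libraries on a log axis against rank, for all miRNA genes averaging 1 CPM or more. The 10 let-7 genes, in red, run from rank 2 (Mirlet7g) to rank 169 (Mirlet7a-2).

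The members are spread over 7 loci, most of them shared with another let-7 gene or with a miRNA of the Mir99 and Mir100 family. Positions are those of GENCODE on mm10. Mirlet7g (ENSMUSG00000065440.1) lies alone on chromosome 9 at 106178840 to 106178927, plus strand, in an intron of Wdr82. Mirlet7i (ENSMUSG00000065406.2) lies alone on chromosome 10 at 122985640 to 122985724, minus strand, in an exon of the transcribed pseudogene D630033A02Rik. No other miRNA gene was annotated on the same strand within 10 kb of either, so the 2 highest members are also the 2 that stand by themselves.

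On chromosome 13, Mirlet7a-1 (ENSMUSG00000065421.2, 48538179 to 48538272), the let-7f-1 hairpin (48537829 to 48537917) and Mirlet7d (ENSMUSG00000065453.1, 48536012 to 48536114) follow each other on the minus strand in exons of the long noncoding RNA 6720427I07Rik. Levels along this cluster were far from equal. Mirlet7d exceeded Mirlet7a-1 25.6-fold and 23.7-fold, and exceeded the reads opposite to Gm24111 86.9-fold and 73.9-fold. The ratio of Mirlet7a-1 to those reads was 3.40 and 3.12. Of the 3 hairpins, Mirlet7d alone has a 5p sequence found in no other hairpin. Reads that fitted both copies are missing from the levels of the others.

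On chromosome X, Mirlet7f-2 (ENSMUSG00000065602.1, 151912346 to 151912428) and Mir98 (ENSMUSG00000065536.2, 151913214 to 151913321) lie 786 bases apart on the plus strand in an intron of Huwe1, which encodes a ubiquitin ligase. Mir98 exceeded Mirlet7f-2 only 1.68-fold and 1.61-fold, the closest levels within a let-7 cluster. On chromosome 15, Mirlet7c-2 (ENSMUSG00000065608.1, 85706603 to 85706697) and Mirlet7b (ENSMUSG00000065564.1, 85707319 to 85707403) lie 622 bases apart on the plus strand in exons of Lncppara. Mirlet7b exceeded Mirlet7c-2 8.64-fold and 7.70-fold. The 5p sequences of Mirlet7f-2 and Mirlet7c-2 are each in 2 hairpins, so their levels leave out reads that fitted both copies.

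The other clusters pair a let-7 gene with a gene of the Mir99 and Mir100 family, an arrangement kept in many animals. On chromosome 16, Mirlet7c-1 (ENSMUSG00000065557.2, 77599657 to 77599750) lies 657 bases from Mir99a in an intron of Mir99ahg. Mir99a, at 235821 and 211043 CPM, exceeded Mirlet7c-1 555-fold and 542-fold. On chromosome 9, Mirlet7a-2 (ENSMUSG00000092770.1, 41536716 to 41536811) lies 5212 bases from Mir100 in introns of 3110039I08Rik and Gm49317, and Mir100 exceeded it 207-fold and 198-fold. The 5p sequences of Mirlet7c-1 and Mirlet7a-2 are each in 2 hairpins, so their levels leave out reads that fitted both copies. That of let-7e is in 1 hairpin, so the ratios of these loci are not like for like. On chromosome 17, the let-7e hairpin (17830352 to 17830444) lies 95 bases from Mir99b and 368 bases from Mir125a in an intron of Spaca6. There the ratios were small, since Mir99b (25881 and 25990 CPM) exceeded the reads opposite to Gm25927 by 4.52-fold and 4.51-fold and Mir125a (6281 and 6491 CPM) by 1.10-fold and 1.13-fold.

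**Figure D3:**
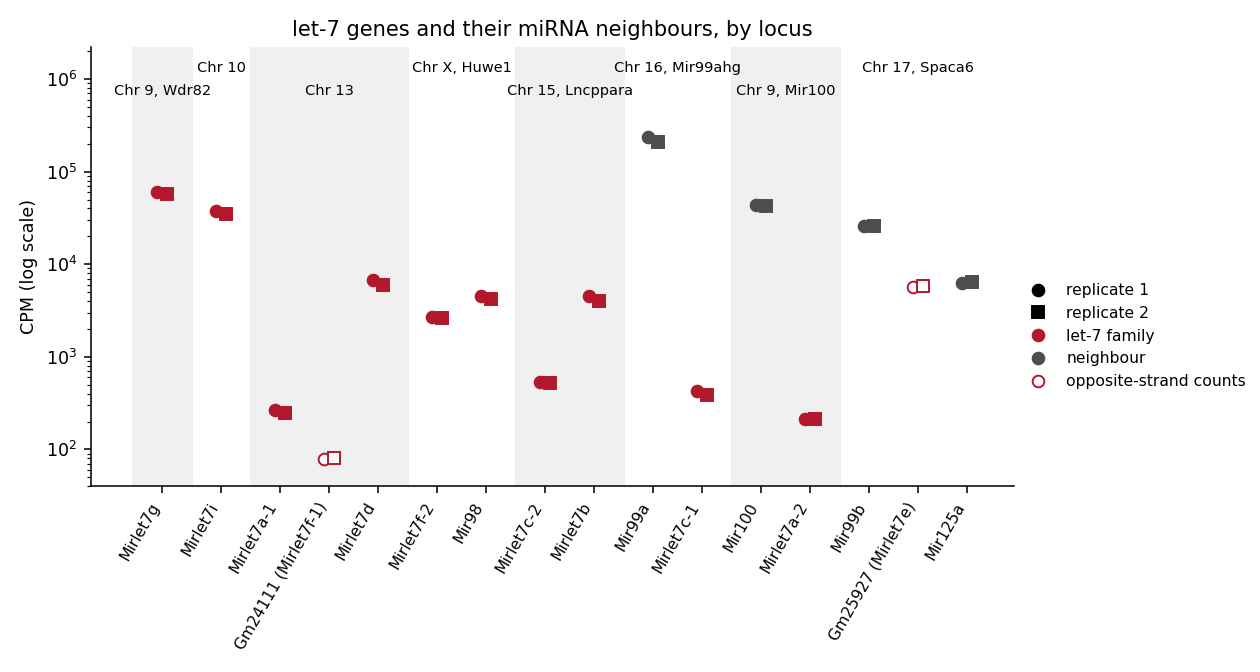
Level in CPM on a log axis of let-7 genes (red) and the miRNA genes next to them (grey), grouped by locus, with circles for replicate 1 and squares for replicate 2. Open symbols are opposite-strand counts of Gm24111 and Gm25927, with the hairpin they face in brackets. Genes of a locus differ in level by 1.10-fold (Mir125a over the let-7e stand-in) to 555-fold (Mir99a over Mirlet7c-1). Levels leave out reads that fitted several copies, as for Mirlet7c-1.

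Precursor loops were compared because LIN28 is known to hold let-7 precursors at the bases GGAG. The letters GGAG were searched on the hairpin's own strand between its annotated arms, and are in capitals below for the 2 highest members. The loops of Mirlet7b and Mirlet7c-2, which lack them, are set beside those.
Mirlet7g loop: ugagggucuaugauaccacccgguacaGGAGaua
Mirlet7i loop: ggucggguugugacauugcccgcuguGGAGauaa
Mirlet7b loop: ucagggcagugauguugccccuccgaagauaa
Mirlet7c-2 loop: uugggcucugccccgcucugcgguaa
GGAG was found in 7 of the 9 members whose loops were compared, against 53 of 648 RefSeq hairpins with both arms annotated (8.18%). Those 648 include the family's own hairpins. The let-7e and let-7f-1 hairpins also held it. The 7 members with GGAG ranged from 211 to 60001 CPM and the 2 without it, Mirlet7b and Mirlet7c-2, from 523 to 4585 CPM. The ranges overlapped. They are not like for like, since the levels of Mirlet7f-2, Mirlet7c-1, Mirlet7a-1, Mirlet7a-2 and Mirlet7c-2 leave out reads that fitted both copies. Among compared members with no such copy, Mirlet7b, at 4585 and 4028 CPM, lacked GGAG. It lay below Mirlet7d (6839 and 5932 CPM), Mirlet7i and Mirlet7g, which hold it. Any bearing of these letters on the levels was not tested. A match describes the sequence only, and Lin28 itself was not measured in these libraries.

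Other miRNAs of the timing and differentiation circuit around let-7 were read from a list of 9 genes. Mir125a, Mir125b-1 and Mir125b-2 are the homologues of worm lin-4, which acts before let-7 in the same pathway, and also target Lin28. Mir125a stood at 6281 and 6491 CPM, between the 2 values of Mirlet7d, and Mir125b-1 (2264 and 2197 CPM) and Mir125b-2 (2228 and 2299 CPM) stood below Mirlet7f-2 in both libraries. Mir9 genes, which share the progenitor target Nr2e1 with let-7, had 455 and 512 CPM for Mir9-3 and 1.75 and 1.56 CPM for Mir9-2, and Mir9-1 was not analysed here. Neuronal Mir124a genes were at or below 4.08 CPM. The genes of Mir9, of Mir124a and of Mir125b are each copies that share a mature sequence, so reads that fit several copies are missing from these levels too. Of the list, 8 genes were in the table, 7 reached a mean of 1 CPM and 4 a mean of 100 CPM.

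Between the pools the family was slightly higher in replicate 1. Its share of sense counts was 11.7% in replicate 1 (exact 95% bounds 11.7 and 11.8) and 11.04% in replicate 2 (bounds 11.01 and 11.06). Over all reads of the tables, in place of sense reads on genes, the mean share was 5.08% rather than 11.4%. That total includes unmapped reads and reads with several places. Any let-7 reads among them are missing from the family's counts. After TMM scaling, the log2 ratio of replicate 2 to replicate 1 with a pseudocount of 1 CPM was lowest for Mirlet7d, at -0.24 (95% counting interval -0.26 to -0.21), and Mirlet7b, at -0.22 (-0.25 to -0.19). Mirlet7c-1 was at -0.16 (-0.26 to -0.063), Mirlet7i at -0.14 (-0.15 to -0.13), Mir98 at -0.14 (-0.17 to -0.11) and Mirlet7a-1 at -0.13 (-0.25 to -0.0091). Mirlet7g was at -0.090 (-0.098 to -0.082) and Mirlet7f-2 at -0.083 (-0.12 to -0.046). Mirlet7c-2, at -0.054 (-0.14 to 0.031), and Mirlet7a-2, at -0.0044 (-0.14 to 0.13), could not be told from equal levels at this depth.

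In all, 8 of 10 members had a counting interval below equal levels and so were higher in replicate 1, and 0 were higher in replicate 2. With total counts in place of TMM scaling the first count was 7, without Mirlet7a-1. Among the 203 genes that averaged 100 CPM or more, 35.0% were higher in replicate 1 by the same rule and 32.0% in replicate 2. The median log2 ratio was -0.14 over the members and -0.0044 over those 203 genes, and the median size of the ratio without its sign was 0.14 and 0.12. No member was more than 1.5-fold apart between the pools, against 0.985% of the 203 genes. Each pool is 1 library, so these ratios compare 2 libraries and have no replicate check.

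The stand-ins could not be told from equal levels. The reads opposite to Gm25927 had a log2 ratio of -0.023 (-0.049 to 0.0021) and those opposite to Gm24111 a ratio of -0.0046 (-0.22 to 0.22). The first interval lies above those of Mirlet7d, Mirlet7b, Mirlet7c-1, Mirlet7i, Mir98 and Mirlet7g. It overlaps those of Mirlet7f-2, Mirlet7a-1, Mirlet7c-2 and Mirlet7a-2. Within clusters, only Mirlet7b (-0.22) and Mirlet7c-2 (-0.054) had intervals that did not overlap. Mirlet7c-2 leaves out reads that fitted both copies, and how often unrelated genes differ in this way was not tested. The intervals of Mirlet7d and Mirlet7a-1, of Mir98 and Mirlet7f-2 and of Mirlet7c-1 and Mir99a (-0.19) overlapped. So did those of Mirlet7a-2 and Mir100. The reads opposite to Gm25927 overlapped with Mir99b and Mir125a, and those opposite to Gm24111 with Mirlet7d and Mirlet7a-1. Endothelial Mir126a (24909 and 21568 CPM, -0.24), mural Mir143 (6322 and 5794 CPM, -0.16) and progenitor Mir92b (-0.045) were also higher in replicate 1. Mural Mir145a (70.0 and 74.6 CPM) was at 0.058 (-0.17 to 0.29) and could not be told from equal levels. Neuronal Mir137 (0.068) and progenitor Mir9-3 (0.13) were higher in replicate 2. Also higher in replicate 2 were Hox miRNAs Mir10a (649 and 917 CPM, 0.46), Mir10b (339 and 532 CPM, 0.62) and Mir196b (19.5 and 30.8 CPM, 0.60), liver Mir122 (43.2 and 76.1 CPM, 0.77) and epithelial Mir205 (17.8 and 57.9 CPM, 1.62) and Mir200b (10.2 and 16.9 CPM, 0.64). Their part in the let-7 difference was not tested.

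**Figure D4:**
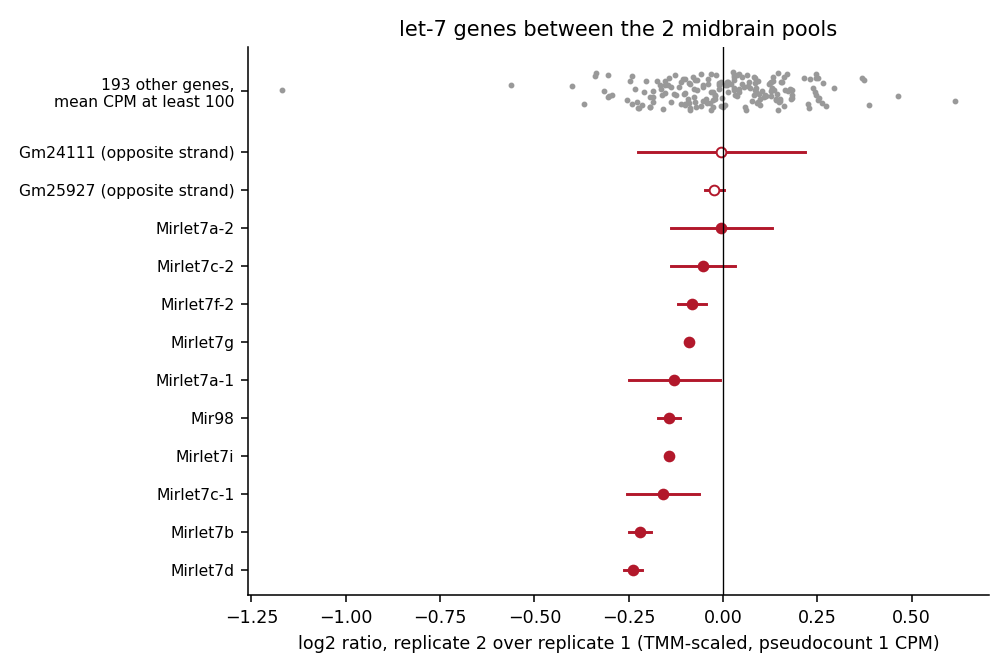
log2 ratio of replicate 2 to replicate 1 after TMM scaling, with bars for the 95% counting interval, for the let-7 genes and the opposite-strand stand-ins (open symbols). Grey points are the other genes averaging 100 CPM or more. All 10 members lie below 0, from -0.24 (Mirlet7d) to -0.0044 (Mirlet7a-2, which turns to 0.029 with total counts in place of TMM scaling), inside the spread of the other genes.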

How the data were processed

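Small RNA was counted in 2 midbrain libraries. The authors deposited whole read counts per miRNA gene, not normalized, in 3 columns (either strand, sense, opposite), made on mm10 with GENCODE M4 per the deposited readme text. No aligner or counter is named in the sources used here, and the meaning of the columns and of the tally of reads with several places was read from the layout and row names. The 4 rows that name no gene stayed out of library sizes. They held 13.4% and 16.9% unmapped reads, 37.7% and 35.8% reads with several places and 3.57% and 3.43% outside genes.

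Symbols and positions came from GENCODE M21 (mm10), which matched 1894 of 1973 identifiers. Sequences came from RefSeq (GRCm38.p6), where copies are exact matches of a mature sequence in another hairpin. The loop of 1 member is not reported here. Sense counts were scaled to CPM. Ratios used edgeR 4.0.16 TMM scaling. Their intervals are conditional exact intervals at 95%, unadjusted. With 1 group of 2 libraries there is no contrast to test, and no p-value is given. Values are means ± SD over 2 libraries, computed with Python 3.11.15 and scipy 1.17.1.

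Alternatives were the other count column, other denominators and member lists, DESeq2 1.42.0 size factors, upper-quartile scaling, total counts, pseudocounts of 0.1 and 10 CPM and leaving out each library. All 10 members, the stand-ins, neighbours within 10 kb and a list of related miRNAs are named, with the 2 genes nearest in mean log2 CPM to each of the 2 highest members. Members and lists were chosen with earlier results of these data known.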

Additional observations from a re-analysis of the deposited data

How the results depend on the processing

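The family share of 11.4% of sense counts became 5.08% of all reads in the tables, a total that includes reads in no gene's count. It was 14.7% with Mir99a left out of the total and 11.9% with the stand-ins added. It stayed within 1 SD with counts on either strand (11.1%) and without Mir98 (10.9%). With 1 library left out it was 11.04% or 11.7%. The share of Mirlet7g in the family was 51.7%, 49.2% with the stand-ins added, and 51.1% or 52.3% with 1 library left out. The share from members with a copied 5p sequence was 3.59%, and 7.36% when 5p sequences at most 1 base apart were also taken as copies, which adds Mirlet7b. With 1 library left out, an alternative added after seeing the data, it was 3.54% or 3.63%.

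The median log2 ratio of the members, -0.14, was -0.10 with total counts only and between -0.13 and -0.14 under the other scalings, pseudocounts and strand column. With total counts 7 members were higher in replicate 1 rather than 8, since the interval of Mirlet7a-1 then reached equal levels, and Mirlet7a-2 turned to 0.029. Of all genes with a count, 25% had an interval apart from equal levels in either direction, against 67.0% of those with a mean of at least 100 CPM, so the share moves with depth. A ratio between libraries could not be computed with 1 library left out. TMM and DESeq2 scaling moved the mean level of members by at most 0.107%, and counts on either strand shifted them by -2.29% to -2.27%.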

Other observations

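Other genes outside the rule carry let-7-like sequences, and were named after their values were seen. The mature sequences are shown because they differ from a family member by 1 or 2 bases over their length, with bases 2 to 8 in capitals, from RefSeq (GRCm38.p6).
let-7j (gene Mir7j): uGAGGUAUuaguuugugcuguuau
let-7k (gene Mir7k): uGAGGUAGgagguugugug
miR-1961 (gene Mir1961): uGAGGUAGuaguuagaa
Over its first 22 bases let-7j differs from let-7i-5p by G8U, a change within the seed, with the base of let-7i first. let-7k differs from let-7b-5p by U9G over 19 bases, and miR-1961 from let-7g-5p by U14A and U16A over 17 bases. Mir7j, on chromosome 3 at 140028249 to 140028370, had 181 and 351 reads, or 52.8 and 61.0 CPM (mean 56.9 ± 5.83, SD, n = 2), below each of the 10 family members. Its log2 ratio of replicate 2 to replicate 1 was 0.17 (95% counting interval -0.087 to 0.44), so the libraries could not be told apart at this depth. Mir7k and Mir1961 had no read in either library, which allows up to 0.875 CPM in replicate 1 and 0.522 CPM in replicate 2. That bound covers only reads placed at a single gene. Reads that fit several places are in no gene's count, so the 0 does not show that these miRNAs are absent.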
